A study of Arabidopsis thaliana with 9 samples.

Results

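The cytosolic ribosomal protein genes described here are 58 nuclear loci of Arabidopsis thaliana, taken from a list of loci by their annotation, with no threshold on their values. They were counted by EXPRSS Tag-seq, a method that reads 1 tag near the 3′ end of each polyadenylated transcript. All 58 loci had sense tags, among 21063 sense loci with a tag in the series. They belong to 32 protein families, of which 23 are represented on the list by several paralogs and 9 by a single locus. By subunit, 39 encode proteins of the large (60S) subunit, 4 encode proteins of its lateral stalk and 15 encode proteins of the small (40S) subunit. The list is a part of the set, and another 169 annotated loci for cytosolic ribosomal proteins were set beside it.

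The cytosolic ribosome translates nuclear mRNA. Its small subunit reads the mRNA, and its large subunit joins amino acids and feeds the chain into an exit tunnel, while the acidic stalk proteins P0, P1 and P2 recruit translation factors. In plants nearly every ribosomal protein is encoded by a small family of paralogs whose transcripts are abundant in growing tissue, and synthesis of the proteins is coordinated with that of rRNA in the nucleolus. The symbols RPS2 and RPS4 stand throughout for small-subunit ribosomal proteins and not for the disease resistance genes of the same abbreviation.

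Leaves came from the mutant slh1 and from the wild-type ecotype Nossen (No-0). All plants were 4 weeks old and had grown at 28 °C with 10 h of light and 14 h of dark. They were moved to 21 °C as the light period began, and leaves were taken at 0, 6, 9 and 24 h. In slh1 the immune receptor gene RRS1 is altered, and its phenotype appears at the lower temperature. Each genotype had 1 library at each time and no replicate, and the sources used here do not say how many plants went into a library. The 0 and 24 h samples share a time of day, whereas the 6 and 9 h samples were taken later in the light, so that at 6 and 9 h the shift and the time of day cannot be told apart. Time after the shift and the lower temperature cannot be told apart at any time.

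The libraries held between 200614 and 503398 sense tags, and slh1 at 0 and 24 h were the smallest. Levels are given as TPM, sense tags scaled to a total of 1e6 per library, which needs no length correction because a transcript gives 1 tag. A single tag stood for 1.99 to 4.98 TPM depending on the library, and a count of 3 tags, used here as the floor, for 5.96 to 15.0 TPM. RRS1 had between 0 and 3 tags per library, too few to check the genotype labels. All 15 leaf mesophyll markers examined passed the filter on low counts, with a summed level between 62413 and 100695 TPM, whereas 12 of 13 markers of dividing cells with any tag summed to between 58.3 and 130 TPM. Against 0 h, 0 of the mesophyll markers were called higher and 3 lower (20%) at 6 h, and 0 higher and 7 lower (46.7%) at 9 h. At 24 h, 4 were called higher (26.7%) and 2 lower (13.3%). Of all genes, 2.66%, 4.45% and 10.5% were called higher at 6, 9 and 24 h, and 1.55%, 3.04% and 8.26% lower. The part of the markers in the values below was not tested. In whole leaves, fewer cells of a type and less RNA per cell cannot be told apart.

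The 58 genes together took up between 0.789% and 1.46% of the sense tags of a library. Their summed level in slh1 was 8953 TPM at 0 h, 11998 TPM at 6 h, 14623 TPM at 9 h and 7888 TPM at 24 h. The sum in No-0 was 9678 TPM at 0 h, 10120 TPM at 6 h, 11495 TPM at 9 h and 9659 TPM at 24 h. The sum was highest at 9 h in both genotypes, and slh1 held both the highest and the lowest of the 8 sums. The 95% Wilson intervals, which cover counting error only, ran from 14255 to 14997 TPM for slh1 at 9 h and from 7515 to 8280 TPM for slh1 at 24 h. For No-0 they ran from 11152 to 11845 TPM at 9 h and from 9392 to 9932 TPM at 24 h.

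In slh1 the sum at 9 h was 1.63 times that at 0 h (95% counting interval 1.55 to 1.72), and the sum at 24 h was 0.540 times that at 9 h (0.510 to 0.570). In No-0 the corresponding ratios were 1.19 (1.14 to 1.24) and 0.840 (0.806 to 0.876). At 24 h the slh1 sum stood at 0.881 of its 0 h level (0.823 to 0.943) and the No-0 sum at 0.998 of its own (0.955 to 1.04). These ratios depend on the setting. With whole-count members alone they were 1.02 in slh1 and 1.07 in No-0, and without chloroplast-encoded loci in the total they were 0.855 in slh1 and 0.891 in No-0. Set against No-0 at the same time, slh1 was at 0.925 (0.873 to 0.979) at 0 h, 1.19 (1.13 to 1.24) at 6 h, 1.27 (1.22 to 1.32) at 9 h and 0.817 (0.772 to 0.864) at 24 h. These intervals compare single libraries and not the conditions. With effective library sizes from edgeR's TMM normalization the ratio at 6 h was 0.973, so its direction depends on the scaling, whereas those at 0, 9 and 24 h kept their direction at 0.870, 1.14 and 0.773. The 9 h maximum of the sum held in both genotypes under every scaling tried.

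In slh1 the member median was 162 TPM at 0 h, 189 TPM at 6 h, 203 TPM at 9 h and 94.8 TPM at 24 h, and in No-0 it was 154 TPM at 0 h, 162 TPM at 6 h, 170 TPM at 9 h and 134 TPM at 24 h. With TMM scaling the median log2 CPM of the tested members was highest at 9 h in slh1 (7.69) but at 6 h in No-0 (7.64, and 7.58 at 9 h). Singly, 35 of the 58 members were highest at 9 h in slh1 and 17 in No-0, with 13 members in common. Only 1 member was highest at 24 h in slh1 and 7 in No-0. In No-0 the most frequent time of the highest level was 0 h, with 22 members, against 7 members in slh1. These counts use TPM without TMM scaling. The matching shares over all genes were not computed, so the counts cannot be read as particular to the members.

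**Figure D1:**
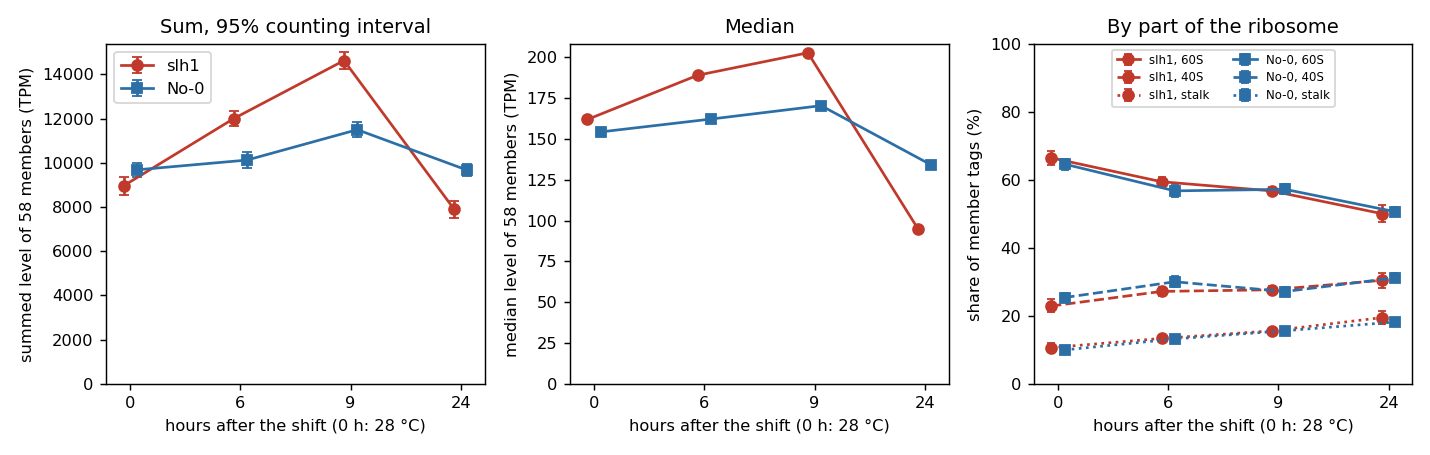
Summed level of the 58 cytosolic ribosomal protein genes (TPM, left, with 95% Wilson counting intervals), their median level (TPM, middle) and the share of their tags from 60S, 40S and stalk genes (percent, right) at 0, 6, 9 and 24 h after the shift, 1 library per point and times evenly spaced, with slh1 as red circles and No-0 as blue squares. The sum peaks at 9 h at 14623 TPM in slh1 against 11495 TPM in No-0, and the 60S share is lowest at 24 h in both genotypes.

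The make-up of the sum differed between times. Genes of 60S proteins gave 66.5% of member tags at 0 h, then 59.5% at 6 h, 56.8% at 9 h and 50.1% at 24 h in slh1. In No-0 they gave 64.7% at 0 h, then 56.8% at 6 h, 57.2% at 9 h and 50.6% at 24 h. The 4 stalk genes gave 10.6% at 0 h and 19.5% at 24 h in slh1, and 9.97% at 0 h and 18.2% at 24 h in No-0. The 60S share at 24 h minus that at 0 h was thus -16.4 percentage points in slh1 and -14.0 points in No-0. Without the 7 members called at 24 h, an alternative chosen after seeing the data, it was -0.55 points in slh1 and -4.78 points in No-0. Those 7 were the 60S genes called lower and the stalk and 40S genes called higher, so a smaller difference without them follows from their choice. Among the other cytosolic ribosomal protein loci with an assigned subunit, the 60S share at 24 h and at 0 h was 44.5% and 43.9% in slh1, and 42.7% and 46.9% in No-0. The subunit of these other loci was read from their annotated product names. By this rule 28 loci with tags stayed unassigned, which summed to between 3316 and 6572 TPM per library. The P0 genes AT2G40010 and AT3G11250 were counted as 60S, whereas the listed P0 gene is counted as stalk. The split of the other loci thus does not fully match that of the members.

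The 60S genes summed in slh1 to 5952 TPM at 0 h, 7134 TPM at 6 h, 8300 TPM at 9 h and 3949 TPM at 24 h, and in No-0 to 6258 TPM at 0 h, 5746 TPM at 6 h, 6578 TPM at 9 h and 4891 TPM at 24 h. The stalk genes of slh1 summed to 952 TPM at 0 h and reached 1537 TPM at 24 h, and those of No-0 to 965 TPM at 0 h and reached 1756 TPM at 24 h. The 40S genes had their highest sum at 9 h in both genotypes, 4045 TPM in slh1 against 3121 TPM in No-0. Below 0 h at 24 h were thus the 60S sums of both genotypes, whereas the stalk and 40S sums were above it in both. The loci outside the list that were assigned to 60S, P0 genes among them, went the other way. Their sum at 24 h was 1.39 times that at 0 h in slh1 (95% counting interval 1.29 to 1.51) and 1.26 times in No-0 (1.20 to 1.33). Over all assigned 60S genes together the ratio was 1.02 in slh1 (0.959 to 1.08) and 1.03 in No-0 (0.989 to 1.07).

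Single genes were tested with edgeR's quasi-likelihood test with Benjamini-Hochberg adjustment over 7824 genes, in a model with the genotype as a block and the time as a factor. Here the error is the extent to which the 2 genotypes differ in their change over time, and p-values measure only the spread between these libraries. Of the 58 members, 56 were tested. RPSAb and RPL10B did not pass the filter on low counts. The comparisons of 6, 9 and 24 h use the same 0 h libraries, so their calls are not independent of each other.

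At 6 h, 2 members were higher and 0 lower. This was 3.57% of the members tested, against 2.66% of all genes called higher at 6 h and 1.55% called lower, and is near that background. The member median was a log2 difference of 0.19, against 0.06 for all genes. The members called at 6 h included RPP1 (AT1G01100), an acidic stalk protein. Both calls were lost on leaving out any 1 of the 4 libraries from 0 and 6 h. DESeq2 called 3.66% of all genes it tested and 0 members, of which 8 of 56 had an unadjusted p below 0.05, against 9.01% of all genes. Limma-voom called 3.21% of all genes and 2 members.

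At 9 h, 5 members were higher and 0 lower, 8.93% of those tested against 4.45% of all genes called higher and 3.04% called lower. The member median was a log2 difference of 0.42, against 0.05 for all genes. The called genes included RPP1, RPP2 (AT2G27720) and RPSAA (AT1G72370). The count fell to 1 without slh1 at 0 h, to 2 without slh1 at 9 h or No-0 at 0 h, and was 8 without either 24 h library. DESeq2 called 2 members and 8.02% of all genes it tested, and limma-voom 6 members and 6.6%.

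At 24 h, 5 members were higher and 2 lower. The shares of 8.93% and 3.57% were not above those of all genes, of which 10.5% were called higher and 8.26% lower. The median had turned, with a log2 difference of -0.32 for the members against 0.03 for all genes, and 35 of 56 values were negative. By subunit, the median was -0.52 for the 38 tested 60S genes, of which 0 were called higher and 2 lower, and 28 were negative. It was 0.29 for the 14 tested 40S genes, of which 3 were called higher and 0 lower, and 5 were negative. Of these 14, 3 were higher and 3 lower at an unadjusted p below 0.05. For the 4 stalk genes the median was 0.51, with 2 called higher and 0 lower. At an unadjusted p below 0.05, 5 members were higher and 15 lower, 8.93% and 26.8% of those tested, against 16.6% and 13.9% of all genes. A stricter filter, which kept genes averaging 20 tags or more, gave 5 members higher and 9 lower, and 4 were called in all without No-0 at 0 h. DESeq2 called 5 members and 13.1% of all genes it tested, and limma-voom 6 members and 16.4% of all genes.

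**Figure D2:**
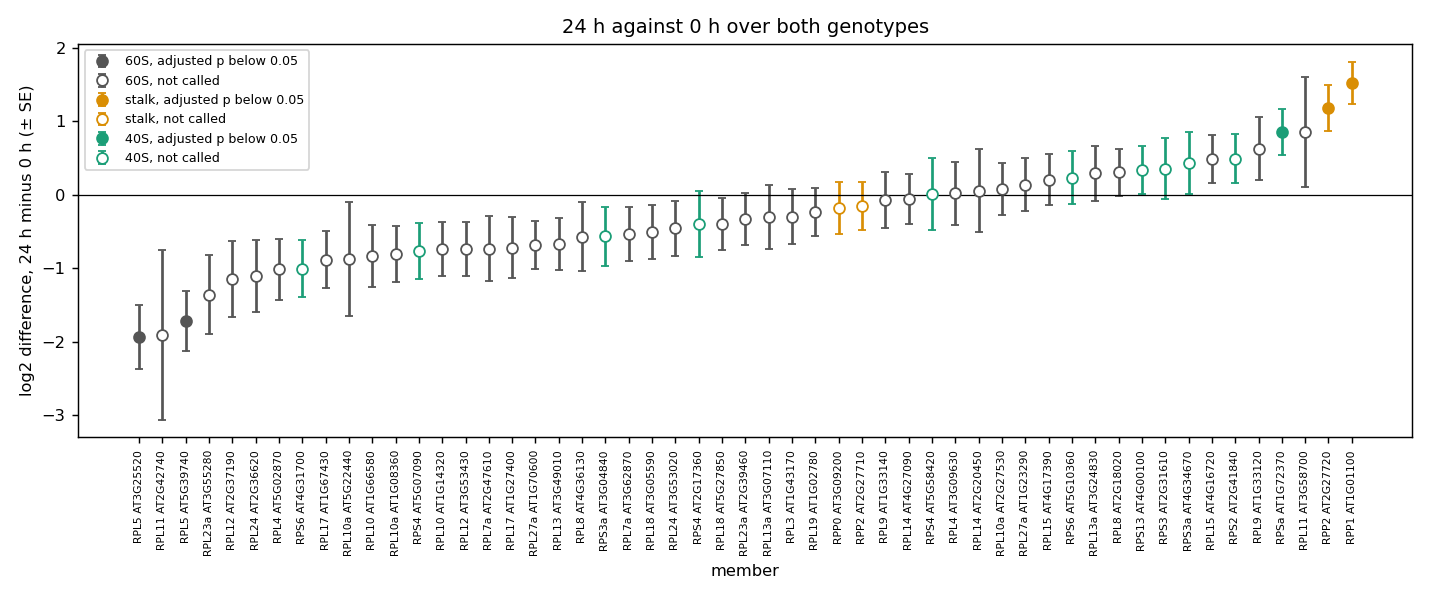
The log2 difference of 53 of the 56 tested members, 24 h minus 0 h (vertical axis, bars show the SE), in order of size along the horizontal axis, with the 60S genes grey, the stalk genes orange and the 40S genes green, filled where the adjusted p was below 0.05. The values run from -1.94 for RPL5 AT3G25520 to 1.52 for RPP1 AT1G01100, and the grey 60S genes make up most of the negative side.

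Promoters of 3 members, of which 2 were higher and 1 lower at 24 h, are shown as examples of both directions, where the genes are first described. Each is the 250 bases before the annotated start, 5′ to 3′ on the gene's own strand, from the RefSeq TAIR10.1 assembly. Capitals mark matches to 2 short motifs that are known from plant ribosomal protein promoters, the site II element (TGGGCC or TGGGCT) and the telo box (AAACCCTA), each searched on both strands. The 2 motifs may overlap.

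RPP1 (AT1G01100, chromosome 1, 49909 to 51210, minus strand) had the highest mean level of the 58 genes. In slh1 it had 254 TPM at 0 h, 622 TPM at 6 h, 834 TPM at 9 h and 822 TPM at 24 h. The level in No-0 was 347 TPM at 0 h, 582 TPM at 6 h, 767 TPM at 9 h and 840 TPM at 24 h. Every library after the shift was well above both libraries from 0 h. At 24 h against 0 h it was higher by a log2 difference of 1.52 ± 0.29 (SE), with an adjusted p of 8.98e-06 from edgeR's test, and the call held in each alternative run. At 9 h the log2 difference was 1.36 (adjusted p = 0.000223, and 0.0666 without slh1 at 0 h) and at 6 h 1.03 ± 0.29 (adjusted p = 0.0169). Its promoter, at chr1:51211-51460 on the minus strand, held 4 site II matches and no telo box.
RPP1 AT1G01100 promoter: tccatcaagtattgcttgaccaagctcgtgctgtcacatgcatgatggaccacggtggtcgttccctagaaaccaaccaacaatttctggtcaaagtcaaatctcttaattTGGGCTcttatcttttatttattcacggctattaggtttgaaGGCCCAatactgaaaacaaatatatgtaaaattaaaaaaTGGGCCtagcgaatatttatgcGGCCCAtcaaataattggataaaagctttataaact

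Its partners on the stalk did not all move alike. RPP2 of AT2G27720 (chromosome 2, 11818230 to 11819646, plus strand) had levels in slh1 of 204 TPM at 0 h, 404 TPM at 6 h, 546 TPM at 9 h and 416 TPM at 24 h. The level in No-0 was 204 TPM at 0 h, 382 TPM at 6 h, 500 TPM at 9 h and 467 TPM at 24 h. The genotypes lay close together at every time, and both 0 h libraries were the lowest. The log2 difference was 1.31 ± 0.31 (SE) at 9 h (adjusted p = 0.00137) and 1.18 ± 0.32 at 24 h (adjusted p = 0.00257). Without No-0 at 0 h both calls were lost, with an adjusted p of 0.0842 for 9 h and 0.0861 for 24 h. The 9 h call was also lost without slh1 at 0 h (adjusted p = 0.0507). Its promoter, at chr2:11817980-11818229 on the plus strand, held neither motif and adjoins the 3′ end of its paralog.
RPP2 AT2G27720 promoter: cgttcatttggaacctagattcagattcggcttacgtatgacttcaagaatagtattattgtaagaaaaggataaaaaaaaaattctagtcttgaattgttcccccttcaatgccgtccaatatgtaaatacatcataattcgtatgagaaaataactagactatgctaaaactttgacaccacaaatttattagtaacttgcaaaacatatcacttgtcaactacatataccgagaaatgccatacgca

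The other RPP2 gene, AT2G27710, lies next to it in the same orientation. It had levels in slh1 of 234 TPM at 0 h, 366 TPM at 6 h, 534 TPM at 9 h and 187 TPM at 24 h, and in No-0 of 259 TPM at 0 h, 165 TPM at 6 h, 256 TPM at 9 h and 232 TPM at 24 h. Its log2 difference at 24 h was -0.15 (adjusted p = 0.792). The slh1 library at 9 h stood above all others, and the 24 h libraries were a little below those of 0 h. RPP0 (AT3G09200), which anchors the P1 and P2 proteins to the large subunit, had levels in slh1 of 259 TPM at 0 h, 211 TPM at 6 h, 363 TPM at 9 h and 112 TPM at 24 h. The level in No-0 was 154 TPM at 0 h, 207 TPM at 6 h, 272 TPM at 9 h and 217 TPM at 24 h. It had its highest level at 9 h in both genotypes, and its log2 difference at 24 h was -0.18 (adjusted p = 0.764).

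On the small subunit, RPSAA (AT1G72370, chromosome 1, 27242845 to 27244931) is a late-joining protein, related to the laminin receptor precursor of animals. It had levels in slh1 of 204 TPM at 0 h, 368 TPM at 6 h, 483 TPM at 9 h and 404 TPM at 24 h, and in No-0 of 245 TPM at 0 h, 439 TPM at 6 h, 412 TPM at 9 h and 379 TPM at 24 h. The libraries from 0 h lay below all others. The log2 difference was 0.95 ± 0.31 (SE) at 9 h (adjusted p = 0.0401) and 0.85 ± 0.32 at 24 h (adjusted p = 0.0414). Of 15 alternatives, 10 lost the call at 9 h and 9 lost it at 24 h, among them those without either 0 h library.

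The 2 members that were lower at 24 h are paralogs. ATL5 (AT3G25520, chromosome 3, 9269277 to 9271465) and RPL5B (AT5G39740, chromosome 5, 15903279 to 15905532) encode ribosomal protein L5, which binds 5S rRNA and carries it into the large subunit. ATL5 had levels in slh1 of 204 TPM at 0 h, 127 TPM at 6 h, 124 TPM at 9 h and 43.8 TPM at 24 h, and in No-0 of 212 TPM at 0 h, 50.9 TPM at 6 h, 90.7 TPM at 9 h and 55.6 TPM at 24 h. All libraries after the shift lay below both from 0 h. The log2 difference at 24 h was -1.94 ± 0.44 (SE, adjusted p = 0.000225), kept in each alternative run, and at 6 h it was -1.26 ± 0.41 (adjusted p = 0.0559).

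RPL5B had levels in slh1 of 199 TPM at 0 h, 199 TPM at 6 h, 167 TPM at 9 h and 38.9 TPM at 24 h, and in No-0 of 227 TPM at 0 h, 73.2 TPM at 6 h, 135 TPM at 9 h and 75.5 TPM at 24 h. The slh1 level was low at 24 h alone, whereas in No-0 it was also low at 6 h. The log2 difference at 24 h was -1.72 ± 0.41 (SE, adjusted p = 0.000567), which was lost without No-0 at 0 h (adjusted p = 0.0912). Its promoter, at chr5:15903029-15903278 on the plus strand, held 4 site II matches and no telo box, the same count of each as that of RPP1, which was higher. That of ATL5 held 2 site II matches and no telo box, and that of RPSAA no site II match and 1 telo box.
RPL5B AT5G39740 promoter: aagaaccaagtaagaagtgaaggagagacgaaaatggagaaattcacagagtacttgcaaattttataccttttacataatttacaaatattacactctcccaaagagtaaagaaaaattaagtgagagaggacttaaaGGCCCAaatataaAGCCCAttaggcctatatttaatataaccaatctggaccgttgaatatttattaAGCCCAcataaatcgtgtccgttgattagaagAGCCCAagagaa

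**Figure D3:**
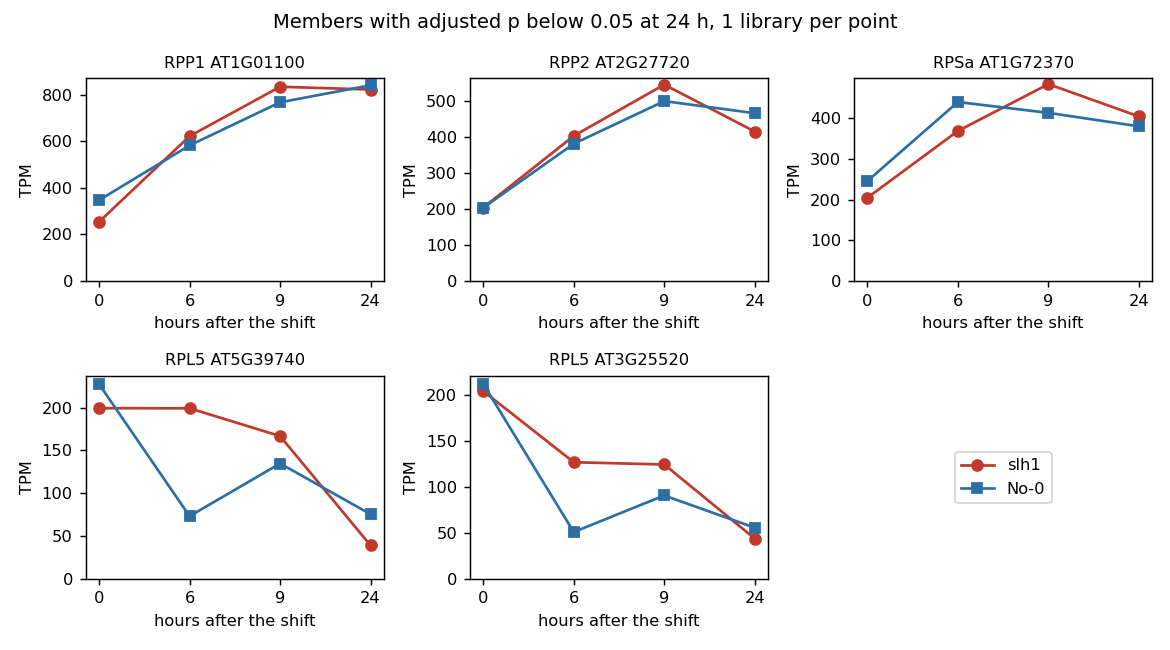
Level (TPM, vertical axes from 0) of 5 of the 7 members with an adjusted p below 0.05 at 24 h, at 0, 6, 9 and 24 h after the shift, evenly spaced, with 1 library per point, slh1 as red circles and No-0 as blue squares. RPP1, RPP2 and RPSAA are above both 0 h libraries in all libraries after the shift, and both RPL5 genes are lowest at 24 h in slh1.

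The site II element was present in 74.1% of the member promoters (43 of 58), against 19.2% of the promoters of all 27438 protein-coding genes. At least 2 matches were found in 55.2% of the members and in 12% of all genes. The telo box was present in 17.2% of the members and 4.49% of all genes, and neither motif was found in 24.1% of the members and 77.7% of all genes. Among the other cytosolic ribosomal protein loci, 65.3% had a site II match and 22.2% a telo box, and among nuclear genes of plastid ribosomal proteins 32.1% and 10.7% did. A match is a run of letters and not a bound site.

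Several members near the threshold at 24 h encode known regulatory or structural proteins of the ribosome. RPS6A (AT4G31700), a member of the family phosphorylated by S6 kinase, had 43.8 TPM at 24 h against 160 TPM at 0 h in slh1, and 111 TPM at 24 h against 190 TPM at 0 h in No-0. Its log2 difference was -1.01 (adjusted p = 0.0515). Its paralog RPS6B (AT5G10360) had 136 TPM at 24 h against 154 TPM at 0 h in slh1, and 207 TPM at 24 h against 152 TPM at 0 h in No-0, a log2 difference of 0.24 (adjusted p = 0.698). Of RPL23a, which lies at the mouth of the exit tunnel, RPL23AB (AT3G55280) had a log2 difference of -1.36 (adjusted p = 0.0589) and RPL23AA (AT2G39460) of -0.33 (adjusted p = 0.557). RPL4 (AT5G02870), which lines the tunnel, had -1.02 (adjusted p = 0.0718), while its paralog AT3G09630 had 0.02 (adjusted p = 0.980). None of these passed the test, and whether paralogs differed from each other was not tested.

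The question of the mutant against the wild type gave no called member. In a fit with the time as a block and 2 residual degrees of freedom, and for slh1 against No-0 over the 21 °C libraries, edgeR's quasi-likelihood test called 0 of 56 members, against 0.102% of all genes (8 of 7824). At an unadjusted p below 0.05 there was 1 member (1.79%), against 5.33% of all genes, and DESeq2 and limma-voom also called 0, against 0.0128% and 0.256% of all genes. The member median was a log2 difference of -0.11, against -0.05 for all genes, and its sign changed among the alternatives, from -0.13 to 0.09. The smallest unadjusted p belonged to RPL23AA, with a log2 difference of 0.63 ± 0.29 (SE, adjusted p = 0.930), RPL7a AT2G47610 with -0.64 (adjusted p = 0.987) and RPL23AB with 0.75 (adjusted p = 0.987).

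RPL23AA had 360 TPM in slh1 against 118 TPM in No-0 at 6 h, 321 TPM in slh1 against 201 TPM in No-0 at 9 h, and 156 TPM in slh1 against 147 TPM in No-0 at 24 h. The slh1 library was above that of No-0 at each of these times, by most at 6 h. At 28 °C, where 1 library is compared with 1, 0 members were called, against 0.0383% of all genes, and 2 (3.57%) had an unadjusted p below 0.05, against 4.6% of all genes. The member median was a log2 difference of -0.27, against -0.06 for all genes. RPS3a AT4G34670 had the smallest p, with 39.9 TPM in slh1 against 141 TPM in No-0 and a log2 difference of -1.90 ± 0.67 (SE, adjusted p = 0.913). RPL10a AT1G08360, also among the 3 smallest, had a log2 difference of 0.99 (adjusted p = 0.990). DESeq2 and limma-voom called 0 members there as well, and each 0.0128% of all genes.

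A further term asked whether slh1 differed from No-0 at 24 h beyond its difference at the other times. It also called 0 members, against 0.256% of all genes, with 9 members at an unadjusted p below 0.05. Of those tested, 1 was higher and 8 lower (1.79% and 14.3%), against 2.02% and 4.84% of all genes, which also lean lower. DESeq2 and limma-voom called 0, against 0.0511% and 0.204% of all genes. The member median was a log2 difference of -0.37 and that of all genes -0.28. Values were negative for 45 of 56 members and for 4671 of 7824 genes. Whether the members differed from all genes was not tested. The smallest p belonged to RPL12 AT2G37190, a protein at the base of the stalk. It had levels in slh1 of 105 TPM at 0 h, 93.9 TPM at 6 h, 72.2 TPM at 9 h and 9.73 TPM at 24 h, and in No-0 of 108 TPM at 0 h, 44.5 TPM at 6 h, 63.2 TPM at 9 h and 71.5 TPM at 24 h. The slh1 level at 24 h is 2 tags, below the floor of 3 tags. The slh1 library at 24 h, with few tags for this gene, stood apart, and the log2 value was -3.12 ± 1.06 (SE, adjusted p = 0.290). RPS6A followed with -1.61 (adjusted p = 0.532) and RPP0 with -1.24 (adjusted p = 0.593). A p above the threshold does not show that the genotypes were alike, since these terms rest on few libraries.

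The genes differed widely in level. The mean over the 8 libraries was at least 100 TPM in 47 of the 58 members, at least 300 TPM in 8 and below 50 TPM in 5, with a median of 162 TPM. The 5 highest means included those of RPP1 at 634 TPM, RPP2 AT2G27720 at 390 TPM, RPSAA at 367 TPM and RPL15 AT4G16720 at 341 TPM. The last of these, a large-subunit protein, had levels in slh1 of 284 TPM at 0 h, 292 TPM at 6 h, 468 TPM at 9 h and 282 TPM at 24 h, and in No-0 of 171 TPM at 0 h, 515 TPM at 6 h, 396 TPM at 9 h and 322 TPM at 24 h. The 5 genes of highest mean held 21.0% of all member tags, with 16.5% at 0 h and 31.6% at 24 h in slh1, and 17.2% at 0 h and 27.3% at 24 h in No-0.

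At the low end, 3 of the 58 members lacked a tag in at least 1 library. RPSAb (AT3G04770) had 15.2 TPM in slh1 at 6 h and 19.3 TPM in No-0 at 0 h and no tag in the other libraries. RPL10B (AT1G26910) averaged 8.74 TPM, and RPL16A (AT2G42740), which belongs to the RPL11 family despite its symbol, averaged 17.8 TPM. RPL10a AT5G22440 averaged 28.5 TPM and RPL11 AT3G58700 averaged 35.6 TPM. RPL11 is, with L5, the other protein bound to 5S rRNA, and both of its genes on the list were among these 5. Its gene RPL16B (AT4G18730), outside the list, averaged 184 TPM.

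Among the families represented on the list by a single locus, 6 more ranked between 10 and 36 of the 58 by mean level. RPL3 (AT1G43170), near the peptidyl transferase centre, lay between 131 and 193 TPM over the 8 libraries, BBC1 (AT3G49010, RPL13) between 136 and 294 TPM, and RPL19 (AT1G02780) between 214 and 358 TPM. Of the 40S proteins, RPS2 (AT2G41840) lay between 200.4 and 363 TPM and RPS13A (AT4G00100) between 184 and 344 TPM. RPS3 (AT2G31610), which lies where the mRNA enters, varied more, between 69.8 and 202 TPM. The log2 difference of these 6 genes at 24 h was -0.30, -0.67 and -0.23 for RPL3, BBC1 and RPL19, and 0.49, 0.34 and 0.36 for RPS2, RPS13A and RPS3. None passed the test. Among these 6 the large-subunit values were negative and the small-subunit values positive, whereas 5 of the 14 tested 40S members had negative values.

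The shares of the listed paralogs were more uneven in some families than in others, and no comparison with even shares was made. Shares here are of the tags of the listed loci of a family alone. Several families, among them RPL8, RPL9, RPL11, RPL13a, RPL18 and RPP2, have further paralogs among the other loci, so these are not shares of the whole family. The leading member is the one with most tags in these same libraries. Its share over the pooled libraries therefore cannot fall below an even one. It held a median of 59.4% of such tags over the 23 families, from 46.5% to 98.6%. In 8 of the 23 families 1 gene led in all 8 libraries. RPSa was the most uneven, as RPSAA held 98.6% ± 2.75 of its tags (SD over 8 libraries) and RPSAb the rest. It was followed by RPL14, with AT4G27090 at 79.3% ± 5.72 over AT2G20450, and by RPL8, with AT2G18020 at 78.0% ± 5.52 over AT4G36130. RPL8 lies at the peptidyl transferase centre.

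Uneven shares were also found in RPL23a, with RPL23AA at 75.2% ± 5.92 over RPL23AB, and in RPL12, with AT3G53430 at 74.6% ± 10.2 over AT2G37190. The lowest leading share was that of RPS4, which has 3 listed genes, in which AT5G07090 held 46.5% ± 8.70, AT2G17360 held 29.1% ± 5.98 and AT5G58420 held 24.5% ± 5.38. The leading gene also held little more than its paralog in RPL4 (AT5G02870, 53.1% ± 9.54, and AT3G09630), RPL18 (AT5G27850, 53.2% ± 4.41, and AT3G05590) and RPL17 (AT1G67430, 53.3% ± 5.21, and AT1G27400). The same held for RPS6, with RPS6B at 54.2% ± 11.9, and for RPS3a, with AT3G04840 at 54.9% ± 12.1 over AT4G34670. In these families, RPS4 and RPL18 excepted, the gene with the highest mean share led in at most 5 of 8 libraries.

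In 11 further families the leading share lay between that of RPL24 and that of RPL5. RPL24B, which in Arabidopsis is known for its role in reinitiation on mRNAs with upstream reading frames, held 69.7% ± 7.65 of RPL24 tags, over RPL24A. RPL11 AT3G58700 held 65.5% ± 22.8 over RPL16A, with as few as 11 tags of these 2 genes in a library. RPL7a AT3G62870 held 62.8% ± 8.76 over AT2G47610, and RPL27a AT1G70600 held 61.2% ± 6.44 over RPL27AB. In RPL10, SAC52 held 60.7% ± 7.11, RPL10C 36.7% ± 7.91 and RPL10B 2.58% ± 1.82.

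The leading share was 59.4% ± 7.07 for AT4G16720 over AT4G17390 in RPL15, 57.3% ± 8.26 for AT3G24830 over AT3G07110 in RPL13a and 58.2% ± 10.8 for AT2G27720 in RPP2. In RPL9 and RPL10a the leaders were PGY2 and PGY1, known from Arabidopsis mutants with altered leaf polarity. PGY2 held 58.8% ± 5.04 over AT1G33120, and PGY1 held 55.8% ± 10.8, with AT1G08360 at 36.6% ± 11.1 and AT5G22440 at 7.58% ± 3.57. In RPL5, RPL5B held 55.4% ± 5.23 over ATL5, so that the 2 genes kept near-even shares while both were lower at 24 h.

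Some shares differed between times. The families given here are examples, and how many of the 23 had intervals apart between times was not counted. RPP2 AT2G27720 held 46.6% of the tags of the 2 listed RPP2 genes at 0 h, then 52.5% at 6 h, 50.6% at 9 h and 69.0% at 24 h in slh1, and 44.0% at 0 h, then 69.8% at 6 h, 66.2% at 9 h and 66.8% at 24 h in No-0. The 95% Wilson interval ran from 60.8% to 76.8% at 24 h and from 36.5% to 56.9% at 0 h in slh1, and from 61.7% to 71.5% at 24 h and from 36.8% to 51.6% at 0 h in No-0. These intervals did not overlap between the times in either genotype. RPS6B held 49.2% of RPS6 tags at 0 h and reached 75.7% at 24 h in slh1, and it held 44.4% at 0 h and reached 65.0% at 24 h in No-0. Its intervals for 24 h and 0 h overlapped in slh1 (59.9% to 86.6% and 37.3% to 61.2%) and not in No-0 (57.3% to 72.0% and 35.9% to 53.1%). In RPL10a of slh1, PGY1 held 33.0% at 0 h and AT1G08360 62.0%, whereas at 6, 9 and 24 h PGY1 held between 56.5% and 67.1%. RPL11 AT3G58700 in slh1 held 18.2% at 0 h (5.14% to 47.7%, 11 tags) and 100% at 24 h (79.6% to 100%, 15 tags). In No-0 it held 63.6% at 0 h and 63.2% at 24 h. All shares in this paragraph are descriptions of single libraries.

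**Figure D4:**
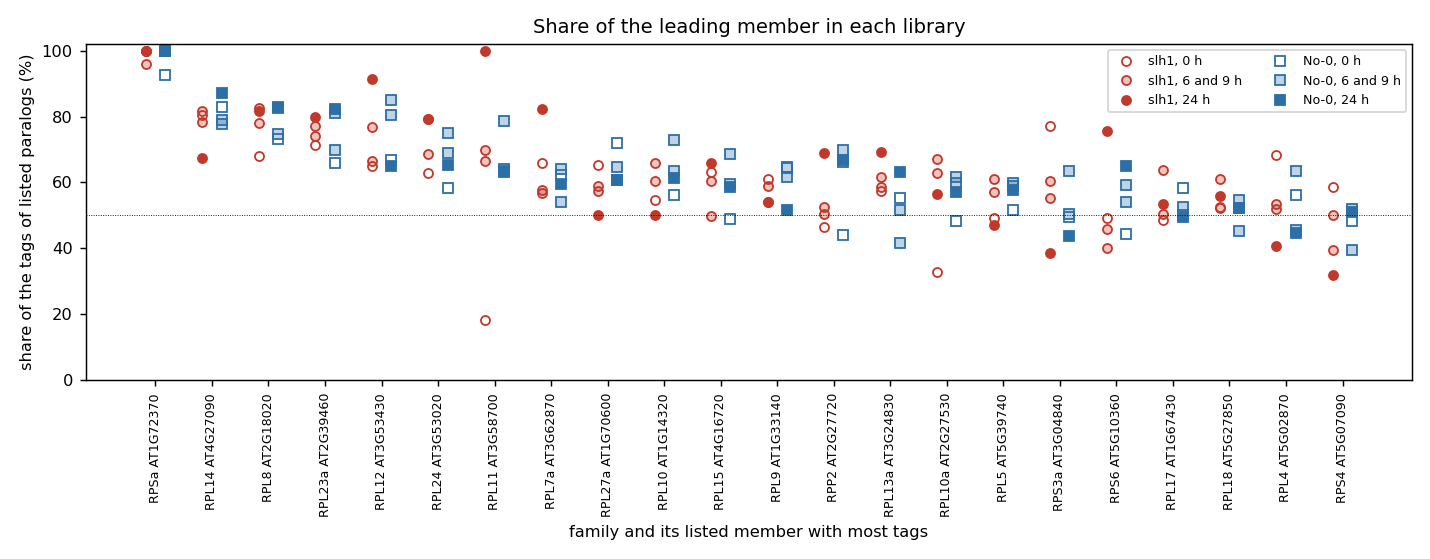
Share of the tags of a family's listed paralogs (percent, vertical axis) held by the leading member in 22 of the 23 families with several members, in each of the 8 libraries, with slh1 as red circles and No-0 as blue squares, open at 0 h, pale at 6 and 9 h and filled at 24 h. The families run from RPSa, where RPSAA holds 98.6% on average, down to RPS4, where AT5G07090 holds 46.5%.

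Reads common to several genes had been split equally between them, which draws shares of near-identical paralogs together. Of the 58 members, 22 had a fractional count in at least 1 library and 36 had whole counts in all. The median leading share was 60.7% in the 11 families with whole counts only. Within the last 300 bases of the annotated transcripts, where tags are expected to lie, a run of 36 bases shared with another gene was found in 1 of 58 members, RPL10C. Over whole transcripts it was found in 38 members, and over more than 10% of the transcript in 3, the RPL9 genes PGY2 and AT1G33120 and RPL16A.

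The other genes of the translation machinery give the setting for these values. The other cytosolic ribosomal protein loci, of which 161 had tags, summed in slh1 to 15988 TPM at 0 h, 25873 TPM at 6 h, 33059 TPM at 9 h and 21261 TPM at 24 h. The No-0 sums were 18039 TPM at 0 h, 23573 TPM at 6 h, 26555 TPM at 9 h and 24089 TPM at 24 h. They too were highest at 9 h in both genotypes, but remained above their 0 h sum at 24 h. Of 144 tested, 13 were called higher and 0 lower at 6 h, 29 higher and 0 lower at 9 h, and 29 higher and 4 lower at 24 h. The shares called higher were 9.03%, 20.1% and 20.1%, against 2.66%, 4.45% and 10.5% of all genes. The share called lower at 24 h was 2.78%, against 8.26% of all genes. Their median log2 difference was 0.47 at 6 h, 0.64 at 9 h and 0.12 at 24 h, against 0.19, 0.42 and -0.32 for the 58 members, and whether the lists differed was not tested.

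Among these other loci, the stalk gene AT5G47700 (P1 family) had a log2 difference of 1.83 at 24 h, the RPS15A gene AT1G07770 of 2.01 and AT5G27700 of 2.02. The 28 nuclear genes of plastid ribosomal proteins, which serve the chloroplast ribosome, summed in slh1 to 8417 TPM at 0 h, 11121 TPM at 6 h, 13745 TPM at 9 h and 7755 TPM at 24 h. The No-0 sums were 9031 TPM at 0 h, 9726 TPM at 6 h, 12019 TPM at 9 h and 9946 TPM at 24 h. Their sums had the same order of times as those of the 58 members in slh1 but not in No-0. At 6 h, 1 gene was called higher and 0 lower, and at 9 h, 4 higher and 0 lower. The shares called higher were 3.57% and 14.3%, against 2.66% and 4.45% of all genes. At 24 h, 3 genes were called higher and 1 lower. These shares of 10.7% and 3.57% were not clearly above those of all genes, 10.5% and 8.26%.

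Translation elongation factors, 11 genes, were also highest at 9 h in both genotypes, at 3999 TPM in slh1 against 3918 TPM in No-0. At 24 h 2 were called higher, AT5G19510 with a log2 difference of 1.84 (adjusted p = 4.67e-07) and AT1G30230 with 1.12, and AT5G12110 was lower with -2.54. The shares were 18.2% higher and 9.09% lower, against 10.5% and 8.26% of all genes. Genes for ribosome assembly in the nucleolus had their lowest sums at 24 h, 374 TPM against 703 TPM at 0 h in slh1, and 418 TPM against 1025 TPM at 0 h in No-0. At 6 and 9 h the genotypes lay on opposite sides of their 0 h sums. The sums were above it in slh1, at 949 and 953 TPM, and below it in No-0, at 687 and 681 TPM. Of 11 tested, 0 were called higher and 4 lower at 24 h, a share of 36.4% lower against 8.26% of all genes. The nucleolin gene NUC-L1 (AT1G48920), a nucleolar protein of rRNA synthesis, had 4.86 TPM at 24 h against 189 TPM at 0 h in slh1, and 35.8 TPM at 24 h against 265 TPM at 0 h in No-0. The slh1 level at 24 h is 1 tag, below the floor of 3 tags. The log2 difference of NUC-L1 was -3.14 (adjusted p = 2.86e-09), and AT3G05060 and NOP56 (AT1G56110), proteins of the box C/D snoRNP, had -3.19 and -2.04. The fourth, AT5G27120, had no tag at 24 h in either genotype.

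**Figure D5:**
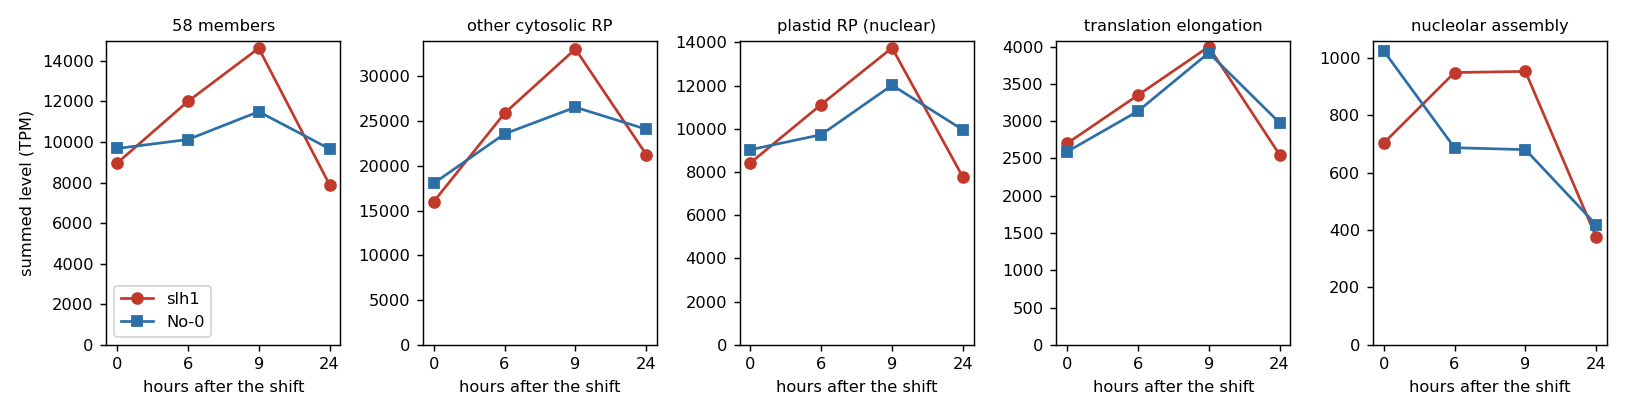
Summed level (TPM, vertical axes from 0, one scale per panel) of the 58 members, the other cytosolic ribosomal protein loci, the nuclear genes of plastid ribosomal proteins, translation elongation factors and nucleolar assembly genes at 0, 6, 9 and 24 h after the shift, evenly spaced, 1 library per point, with slh1 as red circles and No-0 as blue squares. The first 4 sums peak at 9 h in both genotypes, and nucleolar assembly is lowest at 24 h, at 374 TPM in slh1 against 418 TPM in No-0.

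Of the genes for TOR and S6 kinase, the kinases upstream of RPS6 phosphorylation, 3 were tested and 0 were called at 24 h, with 0 at an unadjusted p below 0.05. Their sum lay between 27.5 and 112 TPM, which is 10 to 47 tags per library and leaves little room to detect a change. Chloroplast-encoded transcripts took up between 14.9% and 20.6% of sense tags in slh1 and between 13.4% and 22.6% in No-0, which scales every TPM, and their part in the sums was not tested beyond leaving them out of the total. With them left out, slh1 stood at 0.901, 1.08, 1.27 and 0.864 of the No-0 sum at 0, 6, 9 and 24 h.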

How the data were processed

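EXPRSS Tag-seq libraries of slh1 and No-0 leaves were grouped by the genotype and time in their titles. The authors deposited 1 table per library of expected counts of tags per locus, not scaled to depth. Reads on several or overlapping genes were split equally, so counts need not be whole. The submitters' processing notes name TAIR10, Bowtie 0.12.8, Novoalign 2.08.03 and R 2.15.3, and the methods also name BWA for paired reads, so which aligner gave the counts is unclear. Prefixed loci were read as antisense, which the tables do not state. No molecular identifiers were used, so all intervals (95%, Wilson for shares and sums, Clopper-Pearson for ratios) cover counting error only. A sample of reads without a barcode assignment was not used here.

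Counts were rounded (by at most 0.5 tag) and tested with edgeR 4.0.16 in R 4.3.3 (quasi-likelihood F test, TMM, filterByExpr, threshold 0.05 after Benjamini-Hochberg adjustment). The time comparisons had genotype as a block and 3 residual degrees of freedom. The genotype comparisons had time as a block and 2. SEs were computed as the log2 difference over the square root of F. DESeq2 1.42.0, limma 3.58.1 (voom), other normalizations and filters, and leaving out each library in turn were alternatives. The procedure was tested on simulated data.

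Members and gene lists were chosen with earlier results of these data known. Genes named with values are, with the exception given last, called members, or the 3 with the smallest p where none was called, the 5 highest and 5 lowest means, all paralog families, and in other lists up to 3 called genes per direction. Members near the threshold, partners of called members and some genes of other lists were named after their values were seen. Symbols, coordinates, transcripts and promoters came from the RefSeq TAIR10.1 annotation, in which all 58 members matched. Individual results of 2 families are not reported here, and their genes remain in all sums, medians and counts.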

Additional observations from a re-analysis of the deposited data

Results flagged for a closer look

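The summed member level in slh1 relative to No-0 was on opposite sides of 1 at 9 h and 24 h, at 1.27 and 0.817. The difference between these times was not tested, since members were chosen as a group and each ratio compares 1 library with 1.

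RPP0 (AT3G09200) moved in opposite directions in the genotypes between 0 h and 24 h. Its level at 24 h was 0.432 of that at 0 h in slh1 (95% counting interval 0.252 to 0.718) and 1.40 of it in No-0 (1.01 to 1.97). In all, 13 members had opposite directions, and RPP0 was the only one of them whose intervals both excluded 1. It was picked from the 58 members on this ground, and its No-0 interval only just excludes 1. The term for an extra genotype difference at 24 h did not pass edgeR's quasi-likelihood test for this gene (adjusted p = 0.593). Among the other members, 12 were higher at 24 h in both genotypes and 32 lower in both. RPSAb, with no slh1 tag at 0 or 24 h, was in none of these groups. The same counts were not made over all genes, so they cannot be read as particular to the members.

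Tags on the antisense strand, which no comparison used, amounted to 1870 at the members over the 8 libraries, and 57 of the 58 members had at least 1. They made up between 4.25% and 6.82% of the tags at the members per library, against between 10.1% and 12.3% at all genes. AT3G09200 had the most, with 199 antisense tags, which is 23.9% of its tags. There were 8, 24, 37 and 3 of them at 0, 6, 9 and 24 h in slh1, and 26, 30, 31 and 40 in No-0. The tables do not state that the prefixed loci are antisense.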

How the results depend on the processing

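No paired analysis was possible because each genotype and time has 1 library, so the groups compared share fewer than 2 replicate numbers. This is a matter of replicate numbers alone, since genotype or time was a block in every model. Of 14 calls of single members under 15 alternatives each, 163 were kept, 47 were lost and 0 reversed. Those of RPP1 and ATL5 at 24 h were kept in all 15. The number of members called at 6 h was 2, and 1 without a filter on low counts, 0 with DESeq2, and 0 to 8 when a library was left out. At 9 h it was 5, and 2 with DESeq2 and 1 to 8 when a library was left out. At 24 h it was 7, and 14 when genes averaging under 20 tags were dropped and 4 to 10 when a library was left out. For slh1 against No-0 at 21 °C it was 0, and 0 to 1 when a library was left out.

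When a library was left out, the member median ranged from 0.15 to 0.57 at 9 h (0.15 without slh1 at 9 h and 0.19 without slh1 at 0 h) and from -0.67 (without No-0 at 24 h) to -0.22 at 24 h. The extra difference at 24 h had a median of -0.60 without a filter and of -0.35 to -0.10 when a library was left out. Leaving out a 0 h library gives no value for the 28 °C term, nor a 24 h library for the extra term.

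The median summed level over libraries was 9899 TPM. It was 8768 with antisense tags in the total, 12791 without chloroplast-encoded loci, 11226 with TMM library sizes, 6404 for whole-count members, 9435 without RPP1, and 9678 to 10120 when a library was left out. The highest sum was 1.85 times the lowest, and 1.67 with TMM library sizes, 1.75 for whole-count members, and 1.52 (without slh1 at 9 h) to 1.85 when a library was left out. The 60S share at 24 h minus 0 h was -16.4 points in slh1 and -14.0 in No-0. In alternatives added after seeing the data it was -16.9 in slh1 and -15.0 in No-0 for whole-count members alone. It was -12.5 in slh1 and -11.6 in No-0 without RPP1, and -0.55 in slh1 and -4.78 in No-0 without the 7 called members. The cause was not tested in any of these. Depth limits the low members, since 3 tags are worth up to 15.0 TPM.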
